A study of Homo sapiens with 4 samples.

Results

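Fibronectin, the fibrillins and the matricellular proteins were followed as 8 genes, FN1, FBN1, FBN2, SPARC, TNC, THBS1, THBS2 and POSTN, chosen by symbol for their function. The choice was made with earlier results of these data known. All 8 were found among the 29387 genes listed in every library, and 7 had enough counts to be tested. The libraries came from U87MG, an established human glioblastoma cell line that grows as adherent mesenchymal-like cells. Parental cells had been placed on organotypic brain slices, living sections of brain kept in culture, and were left to invade for 1 week. The medium of that week was made for neural stem cells and held FGF and EGF. The highly invasive populations 1 and 2 and the poorly invasive control populations 1 and 2 were recovered from those slices and grown in dishes for another 3 to 5 days until RNA was taken. The sample titles name the invasive populations as brain invasive clones 1 and 2, and the others only as controls. Each invasive population was set against the control of the same number, and each population is 1 polyadenylated RNA library. No gene was altered and no other agent distinguished the groups in the labels. Which species supplied the slices is not stated in the labels.

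Fibronectin is a secreted adhesive glycoprotein that cells stretch into fibrils through integrins, mainly the α5β1 receptor. Fibrillins assemble into microfibrils, which carry elastin and hold latent TGF-beta complexes in the matrix. Matricellular proteins such as SPARC, tenascin C, periostin and the thrombospondins are also secreted into the matrix, but they mainly tune how cells attach to it and respond to growth factors rather than bearing load. In glioblastoma, tenascin C and fibronectin are known as components of the tumour matrix and vessel walls, and SPARC has been studied as a regulator of glioma cell migration.

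Library totals were 15466900 counts in invasive 1, 17817756 in control 1, 13829871 in invasive 2 and 15444104 in control 2. A count of 0 allows a level of up to 3 counts, which is 0.168 to 0.217 CPM (counts per 1000000 counts of the library). Control 2 stood apart from the other libraries: 20 genes were at least 4-fold above every other library there and 10 at least 4-fold below, against 0 to 2 above and 1 to 5 below in the others. VIM, a mesenchymal filament gene, had 113467 to 145137 counts, while the glial markers GFAP, S100B and SOX2 had at most 4 counts in any library. The rest of the listed glioma-cell markers were present: CD44 had 24032 to 38230 counts, EGFR 3112 to 4891, CHI3L1 775 to 2665 and NES 217 to 739. CD44 and NES had log2 fold changes of invasive over control of −0.40 ± 0.11 and −0.33 ± 0.12, and neither passed an adjusted p of 0.05. Summed markers of neurons, oligodendrocytes and endothelium stayed at or under 124 CPM in every library. Astrocyte markers summed to 759 to 774 CPM in the invasive libraries and 638 to 794 in the controls, and markers of microglia and leukocytes to 70.1 to 184 CPM in the invasive libraries and 126 to 166 in the controls. In that last list CD74 had 51.0 to 149 CPM, and TMEM119 had 14.3 and 7.16 CPM in the invasive libraries against 2.19 and 3.11 in the controls (log2 fold change 1.95 ± 0.39, adjusted p = 0.117). Also in that list, CSF1R had 10.1 to 21.3 CPM, while PTPRC had at most 1 count and CX3CR1 at most 2 counts in any library. MOG, CLDN5, P2RY12 and AQP4 were at 0 throughout.

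Gene positions below are those of the deposited files, on GRCh38. The 8 genes took a larger share of all counts in the invasive library of each pair. They made up 0.964% of counts in invasive 1 against 0.811% in control 1, and 0.768% in invasive 2 against 0.607% in control 2. FN1 supplied more of these counts than any other member in each library. SPARC and FBN1 had the smallest p-values of the group, 1.94-fold and 1.75-fold higher in the invasive populations. THBS1 had the widest range, TNC was slightly lower in the invasive populations, FBN2 was nearly level, and POSTN was close to absent.

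Invasive and control libraries were compared within pairs by edgeR's quasi-likelihood test, with p-values adjusted over all 14231 tested genes by the Benjamini-Hochberg method. In this test 0 of the 7 tested genes passed an adjusted p of 0.05 in either direction. Over all tested genes, 0.239% passed upward and 0.0351% downward. At an unadjusted p under 0.05, SPARC, FBN1 and FN1 were higher (3 of 7, against 9.82% of all tested genes) and 0 were lower (against 8.41%). DESeq2 with the same block called 2 higher, SPARC and FBN1, where it called 0.998% of all genes upward. The median log2 fold change of the 7 genes was 0.27, beside 0.005 over all tested genes. In both pairs FN1, FBN1, SPARC and THBS1 were higher in the invasive library (4 of 7, against 33.4% of all tested genes) and TNC was lower (1 of 7, against 31.9%). Invasive and control libraries did not overlap, with higher invasive values, for SPARC, FBN1 and THBS1 (3 of 7, against 21.8% of all tested genes), and with lower invasive values for TNC (1 of 7, against 21.6%). The genes were chosen with earlier results known, so these shares describe the group and do not test it.

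**Figure D1:**
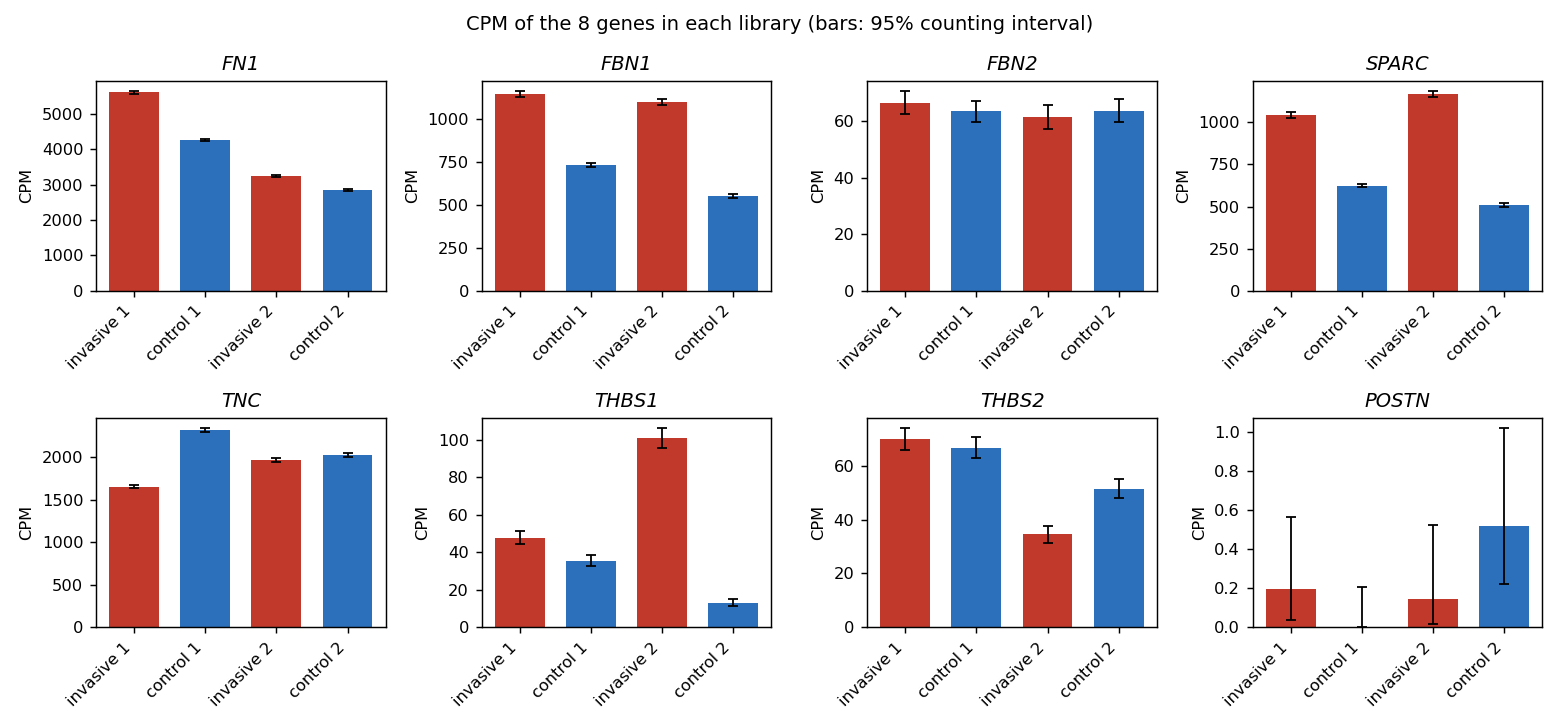
CPM (y axis) of the 8 genes in each of the 4 libraries (x axis), invasive in red and control in blue, with 95% Poisson counting intervals as black bars. SPARC and FBN1 are higher in both invasive libraries, THBS1 peaks at 100.9 CPM in invasive 2, and FN1 is lower in both libraries of pair 2.

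FN1 (chr2:215360440-215436172) was among the most abundant messages in these cells. It had 5609 CPM in invasive 1 against 4260 in control 1, and 3254 in invasive 2 against 2859 in control 2. By count it ranked 4 among all genes in invasive 1 and 7 in control 1, and 14 in both libraries of pair 2. The groups overlapped, because control 1 lay above invasive 2. The log2 fold change of invasive over control was 0.27 ± 0.11 (SE; adjusted p = 0.267, 95% interval 0.005 to 0.54). FN1 was 1.29-fold higher in invasive 1 than in control 1 and 1.14-fold higher in invasive 2 than in control 2. The difference between the pairs was larger in size than that between the groups. Pair 2 over pair 1 gave a log2 fold change of −0.68 ± 0.11 (adjusted p = 0.109, a term examined after the values were seen, which passed for 0.0984% of genes). With a library left out the pair block was dropped too, since 3 libraries cannot carry it with a test. In such fits FN1 had a log2 fold change of −0.15 ± 0.28 without invasive 1 and of 0.02 ± 0.32 without control 2, while the within-pair log2 differences were 0.36 in pair 1 and 0.18 in pair 2. Counts per gene do not separate the spliced forms of fibronectin.

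FBN1 (chr15:48408306-48645849), which encodes the main fibrillin of adult microfibrils, had 1149 CPM in invasive 1 against 733 in control 1. In pair 2 it had 1100 CPM in invasive 2 against 550 in control 2. The invasive libraries were close together, at 1124 ± 34.7 CPM, and the controls averaged 642 ± 129 CPM (SD, n = 2 each). Both invasive libraries lay above both controls. The log2 fold change was 0.81 ± 0.13 (adjusted p = 0.0802). The difference was 1.53-fold in pair 1 and 1.99-fold in pair 2.

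FBN2 (chr5:128257909-128659185), a fibrillin best known from embryonic tissues, stayed level at a far lower count. It had 66.5 CPM in invasive 1 against 63.4 in control 1, and 61.3 in invasive 2 against 63.7 in control 2. The counting intervals of all 4 libraries overlapped. Its log2 fold change was −0.01 ± 0.10 (adjusted p = 0.965), with a 95% interval in folds of 0.843 to 1.17. Per kilobase of exon, FBN1 stood at 14.2 times FBN2 in invasive 1 against 9.50 times in control 1, and at 14.7 times in invasive 2 against 7.11 times in control 2. The fibrillin balance was thus further towards FBN1 in both invasive libraries.

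SPARC (chr5:151661096-151687165), a collagen- and calcium-binding matricellular protein, was the member with the smallest p. It had 1044 CPM in invasive 1 against 625 in control 1, and 1168 in invasive 2 against 507 in control 2. Group means were 1106 ± 87.9 CPM in the invasive populations and 566 ± 83.5 CPM in the controls (SD, n = 2 each), without overlap. The log2 fold change was 0.95 ± 0.14 (adjusted p = 0.0758). The difference was 1.63-fold in pair 1 and 2.30-fold in pair 2. SPARC and THBS1 were the 2 members past 2-fold in pair 2 (background 4.31% of tested genes upward), and 0 members were past 2-fold in pair 1 (background 3.02%).

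SPARC and FBN1 missed the threshold in the main test but passed it under 4 alternatives. They did not pass in the edgeR fit of all 4 libraries without the block (adjusted p = 0.202 for SPARC and 0.236 for FBN1). With RLE size factors, where 0.562% of genes passed upward, the adjusted p was 0.0494 for SPARC and 0.0498 for FBN1. With library totals alone, where 2.59% passed upward, it was 0.00616 and 0.00582. With DESeq2 it was 9.47e-06 and 0.000211. With no filter on low counts, where 2.97% passed upward, it was 4.49e-14 and 5.98e-10. With each library left out in turn, in fits without the block, their log2 fold changes stayed between 0.79 and 1.12 for SPARC and between 0.58 and 1.02 for FBN1, and neither passed. The lowest values of both came without control 2.

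Of the listed markers of pericytes and fibroblasts, some but not all were higher in the invasive libraries, as SPARC and FBN1 were. The 9 listed genes summed to 1729 CPM in invasive 1 against 867 in control 1, and 1078 in invasive 2 against 462 in control 2. At an unadjusted p under 0.05, 5 of the 9 were higher (against 9.82% of all tested genes) and 1 was lower (against 8.41%). COL1A1 and LUM, which encode matrix proteins themselves, passed upward after adjustment (2 of 9, against 0.239% of all tested genes). Their log2 fold changes were 1.40 ± 0.13 (adjusted p = 0.0278) and 1.90 ± 0.20 (adjusted p = 0.0322). COL1A1 alone held most of that sum, with 1458 CPM in invasive 1 against 624 in control 1, and 873 in invasive 2 against 285 in control 2. Of the markers that did not pass, FAP had a log2 fold change of 0.64 ± 0.10 (adjusted p = 0.0814), PDGFRA 1.33 ± 0.28 (adjusted p = 0.108), COL3A1 1.44 ± 0.49 on 7 to 27 counts, and CSPG4 −0.33 ± 0.09 (adjusted p = 0.16). PDGFRB had a log2 fold change of 0.23 ± 0.12 and RGS5 0.00 ± 0.27. DCN had 26 and 24 counts in the invasive libraries and 15 and 68 in the controls, and no gene of the list was at 0 in all 4 libraries. The part of such cells in the difference was not tested. In bulk RNA, more cells of a type and more RNA per cell cannot be told apart.

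The promoters of SPARC and FBN1 are shown because these genes had like values across the 4 libraries. Sequences are from RefSeq on GRCh38.p14, 250 bases before to 50 after the start, 5′ to 3′. All 8 genes had an entry. Capitals mark exact matches, on either strand, to 6 motifs. These were TATAAA for the TATA box, GGGCGG for the GC box read by SP1, TGANTCA for AP-1, the SRF CArG box, CATTCC for the core read by TEAD factors and CAGACA, which holds a SMAD box.
SPARC promoter, chr5:151686866-151687165, minus strand: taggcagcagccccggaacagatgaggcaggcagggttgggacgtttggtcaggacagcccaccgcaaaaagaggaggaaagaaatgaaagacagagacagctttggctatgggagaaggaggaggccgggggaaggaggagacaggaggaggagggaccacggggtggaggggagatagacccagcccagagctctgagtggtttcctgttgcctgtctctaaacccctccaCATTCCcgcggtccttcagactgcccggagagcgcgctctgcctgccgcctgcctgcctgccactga
FBN1 promoter, chr15:48644921-48645220, minus strand: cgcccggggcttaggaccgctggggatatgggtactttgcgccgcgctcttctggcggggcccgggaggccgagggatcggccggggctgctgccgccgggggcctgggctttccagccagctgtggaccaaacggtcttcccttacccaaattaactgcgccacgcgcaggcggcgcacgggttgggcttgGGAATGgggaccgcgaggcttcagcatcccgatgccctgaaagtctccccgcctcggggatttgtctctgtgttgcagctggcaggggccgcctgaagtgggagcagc
Each of these windows holds 1 match, to CATTCC, at position −17 of SPARC on the sense strand and at −58 of FBN1 on the other strand. CATTCC occurred in 14% of the 35116 promoters of the table. A match describes letters in this window only.

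**Figure D2:**
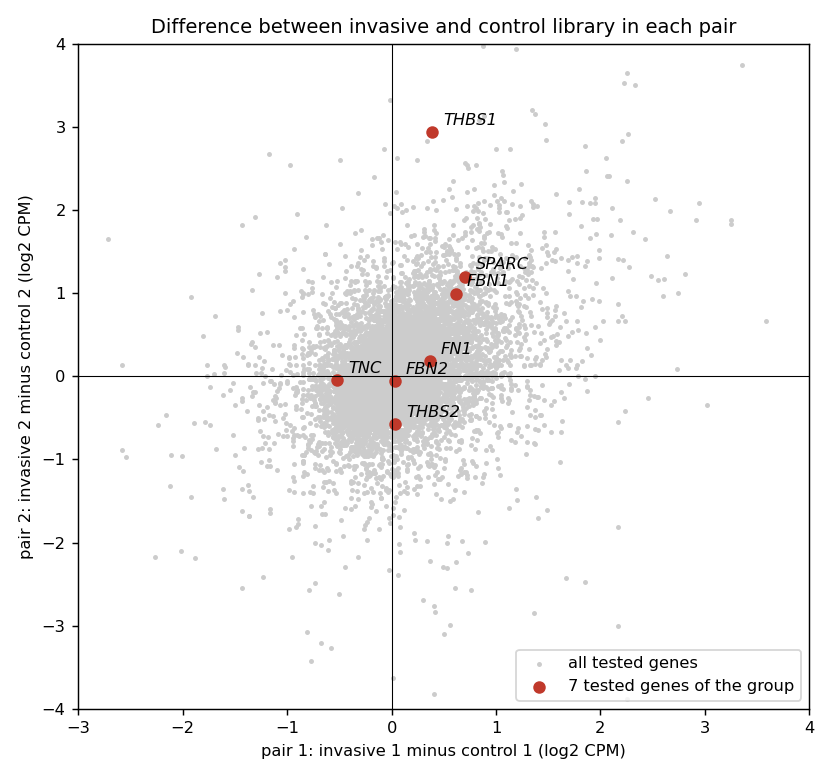
Difference between the invasive and control library in pair 1 (x axis) and pair 2 (y axis), in log2 CPM; grey points are all tested genes and red points the 7 tested genes of the group, with 8 genes outside the axes. SPARC lies in the upper right at 0.71 in pair 1 and 1.20 in pair 2, with FBN1 beside it, and THBS1 lies at 0.39 in pair 1 and 2.94 in pair 2.

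TNC (chr9:115019578-115118257), which encodes tenascin C, an anti-adhesive glycoprotein of glioma matrix, differed in the other direction. It had 1653 CPM in invasive 1 against 2321 in control 1. In pair 2 the levels were 1963 CPM in invasive 2 and 2023 in control 2. The invasive libraries lay below both controls, but by little in pair 2. The log2 fold change was −0.28 ± 0.14 (adjusted p = 0.332, 95% interval −0.62 to 0.05). TNC had a log2 difference of −0.52 in pair 1 and of −0.05 in pair 2. With the authors' normalized values the direction in pair 2 turned, to 0.05. Those values were set within each pair, and in pair 2 the sorted values were identical at 73.5% of ranks. By count TNC ranked 29 in invasive 2 and 30 in control 2.

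THBS1 (chr15:39581079-39599466), an inhibitor of angiogenesis that can release TGF-beta from its latent form, had the largest range of the group. It had 47.7 CPM (737 counts) in invasive 1 against 35.6 CPM (634 counts) in control 1. In pair 2 it had 100.9 CPM (1395 counts) in invasive 2 against 13.0 CPM (201 counts) in control 2. The invasive library was thus 1.31-fold higher in pair 1 and 7.67-fold higher in pair 2, where invasive 2 was the highest and control 2 the lowest of the 4. The log2 fold change of 1.61 ± 1.08 did not pass (adjusted p = 0.594), and its 95% interval, −4.57 to 7.80 on the log2 scale, spans 0 widely. With the block dropped, leaving out control 2 gave a log2 fold change of 1.03 ± 0.48, leaving out invasive 2 gave 0.94 ± 0.90 and leaving out control 1 gave 2.50 ± 0.55. FSIP1, which overlaps an exon of THBS1 on the opposite strand, had 24 to 45 counts per library.

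THBS2 (chr6:169215780-169254044), the related angiogenesis inhibitor, did not follow THBS1. It had 69.8 CPM in invasive 1 against 66.6 in control 1, and 34.5 in invasive 2 against 51.3 in control 2. The counting intervals of pair 1 overlapped, whereas those of pair 2 did not. The log2 fold change was −0.26 ± 0.16 (adjusted p = 0.441, 95% interval −0.66 to 0.14), with log2 differences of 0.03 in pair 1 and −0.58 in pair 2. With the block dropped, leaving out invasive 2 gave a log2 fold change of 0.22 ± 0.20, leaving out control 1 gave 0.01 ± 0.43 and leaving out invasive 1 gave −0.79 ± 0.21. Like FN1, THBS2 was lower in pair 2, by a log2 difference of −0.69 ± 0.16 against pair 1 (adjusted p = 0.191).

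Per kilobase of exon, THBS1 stood at 0.478 times THBS2 in invasive 1 against 0.374 times in control 1. The ratio was 2.05 in invasive 2 against 0.178 in control 2. THBS2 was therefore the more abundant thrombospondin of this pair of genes in every library but invasive 2. With the length of the longest principal transcript in place of all exons, the ratio was 0.511 in invasive 1 against 0.399 in control 1, and 2.19 in invasive 2 against 0.189 in control 2.

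**Figure D3:**
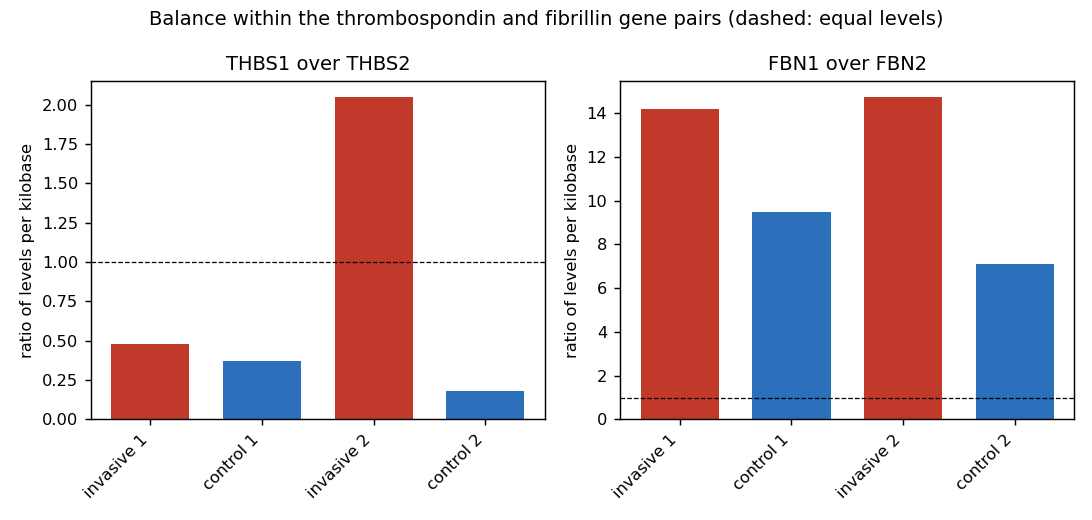
Ratio of levels per kilobase of exon (y axis) for THBS1 over THBS2 and FBN1 over FBN2 in each library (x axis), invasive in red and control in blue, with a dashed line at equal levels. THBS1 exceeds THBS2 in invasive 2 alone among the 4 libraries, and FBN1 exceeds FBN2 in all 4, more so in the invasive ones.

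The promoters of the thrombospondin genes are shown to compare related genes whose levels diverged in pair 2, with the same motifs in capitals.
THBS1 promoter, chr15:39580829-39581128, plus strand: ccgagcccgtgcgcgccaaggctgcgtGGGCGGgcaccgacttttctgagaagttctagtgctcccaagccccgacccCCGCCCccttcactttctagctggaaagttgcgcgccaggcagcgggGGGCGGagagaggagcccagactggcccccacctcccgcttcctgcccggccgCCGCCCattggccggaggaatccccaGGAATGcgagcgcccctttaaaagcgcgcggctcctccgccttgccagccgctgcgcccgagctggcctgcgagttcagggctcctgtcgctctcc
THBS2 promoter, chr6:169253797-169254096, minus strand: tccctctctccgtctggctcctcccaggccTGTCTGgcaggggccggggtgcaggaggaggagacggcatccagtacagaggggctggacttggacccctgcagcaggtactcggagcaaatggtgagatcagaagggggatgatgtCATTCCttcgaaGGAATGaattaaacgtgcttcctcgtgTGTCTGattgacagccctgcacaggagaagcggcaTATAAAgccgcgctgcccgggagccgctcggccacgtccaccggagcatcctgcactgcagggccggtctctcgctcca
The THBS1 window holds 4 GC boxes and 1 CATTCC match and no TATAAA, with 70% G and C. The THBS2 window holds TATAAA at −29, a pair of CATTCC matches on opposite strands at −103 and −91, 2 CAGACA matches and no GC box, with 61.7% G and C. Over all 35116 promoters, TATAAA occurred in 11.5%, GGGCGG in 45% and CAGACA in 16.9%. Of the 8 genes, CATTCC was found in the windows of SPARC, FBN1, THBS1 and THBS2, and GGGCGG in those of FN1, FBN2, TNC and THBS1. TGANTCA was found in POSTN alone of the 8 (7.71% of all promoters) and the CArG box in 0 of 8 (1.29%).

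POSTN (chr13:37562583-37598844), which encodes periostin, a collagen-binding protein of fibrous tissue, was near the floor and was not tested. It had 3 counts in invasive 1 against 0 in control 1, and 2 in invasive 2 against 8 in control 2. A count of 0 in control 1 allows up to 0.168 CPM. The 95% counting intervals of control 1 (0 to 0.207 CPM) and control 2 (0.2236 to 1.021 CPM) did not overlap. Those of the invasive libraries overlapped each other and both controls, so invasive and control libraries cannot be ordered at this depth.

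Per kilobase of exon, the levels fell into 2 tiers above POSTN. FN1 spanned 165 to 324 CPM per kilobase, TNC 172 to 241, SPARC 105 to 242 and FBN1 34.3 to 71.6. THBS2 spanned 5.38 to 10.9, THBS1 1.42 to 11.0 and FBN2 4.65 to 5.04, and POSTN at most 0.0948. The ranges of FN1, TNC and SPARC overlapped by this length. With the longest principal transcript, FN1 spanned 362 to 710 CPM per kilobase, above TNC at 216 to 304 and SPARC at 137 to 316. Whether FN1 stood above the others thus depends on the length used. Per kilobase of exon, the range of THBS1 took in those of both THBS2 and FBN2, while the lowest THBS2 library lay just above the highest FBN2 library. By the longest principal transcript the ranges of THBS2 and FBN2 overlapped slightly, at 5.93 CPM per kilobase for THBS2 in invasive 2 and 5.97 for FBN2 in invasive 1. FN1 over TNC was 1.89 in invasive 1 against 1.02 in control 1, and 0.923 in invasive 2 against 0.786 in control 2. By the longest principal transcript the ratio was 3.28 in invasive 1 against 1.78 in control 1, and 1.60 in invasive 2 against 1.37 in control 2, so the order of FN1 and TNC in pair 2 depends on the length used.

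**Figure D4:**
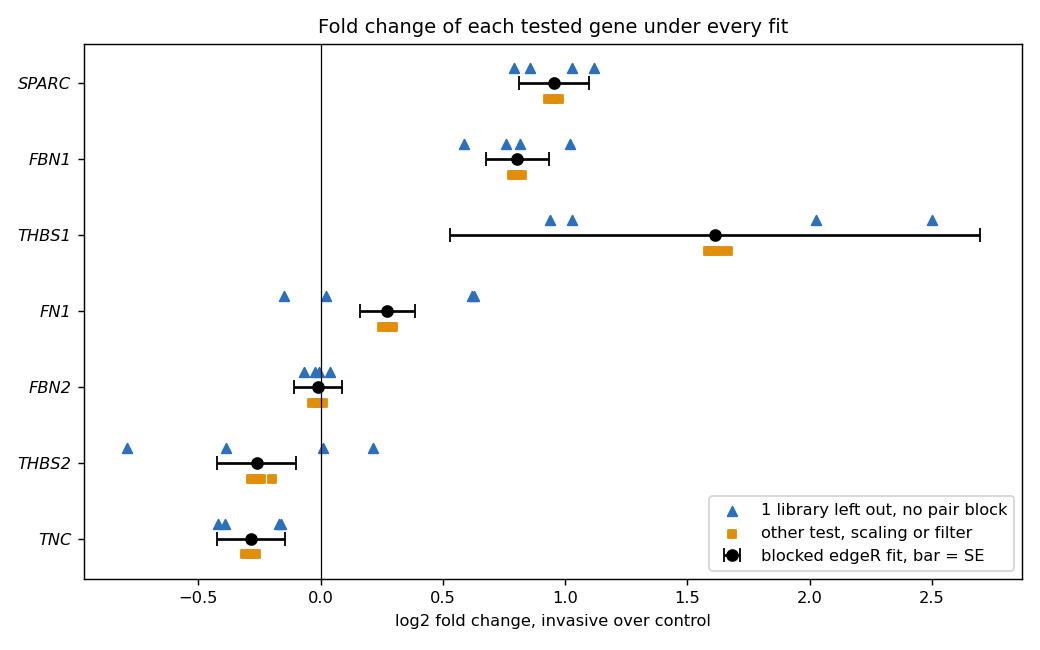
Log2 fold change of invasive over control (x axis) for the 7 tested genes (y axis): black circles with SE bars from the blocked edgeR fit, blue triangles with 1 library left out and no pair block, orange squares with another test, scaling or filter. SPARC, FBN1 and THBS1 stay above 0 and TNC below 0 in every fit shown, while FN1, FBN2 and THBS2 cross 0 in at least 1 fit that leaves out a library and the block.

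Genes whose levels ran most like those of the members were found by distance between log2 CPM values, each centred on its own mean, over the 4 libraries and among 9328 protein-coding genes of at least 10 CPM. The 4 members whose log2 CPM spanned more than 1 over the libraries were FBN1, SPARC, THBS1 and THBS2. FBN1 was closest to SMARCD3, MRAS and ARHGEF17, at distances of 0.073 to 0.093. SPARC was closest to TNFRSF19, DOCK2 and ADCY9, at 0.060 to 0.104. THBS1 was closest to CEMIP, IGFBP3 and COL5A1, at the larger distances of 0.463 to 0.734. CEMIP had 146 and 259 CPM in invasive 1 and 2 against 95.3 and 50.7 CPM in control 1 and 2. THBS2 was closest to HLA-DPB1, SYNE3 and HLA-DRB1, at 0.077 to 0.117. With 4 libraries and so many genes, close patterns are frequent.

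Genes that work with the 8 were examined in 6 lists, and 0 of the 87 tested genes passed in the main test. These lists too were chosen with earlier results of these data known. At an unadjusted p under 0.05, counts in each list stand beside the 9.82% of all tested genes that were higher and the 8.41% that were lower. Of 13 other matricellular genes tested, 6 were higher and 1 lower at that level, with a median log2 fold change of 0.47. CTGF, a YAP and TGF-beta target of the CCN family, had 57.9 and 120.5 CPM in the invasive libraries against 40.6 and 55.2 in the controls (log2 fold change 0.81 ± 0.17, adjusted p = 0.128). The proteoglycan SPOCK1 had 0.63 ± 0.15 and the thrombospondin THBS3 0.49 ± 0.12 (adjusted p = 0.135 and 0.131). SPARCL1, SMOC2 and COMP had at most 1 count in any library.

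Of 13 tested genes of microfibrils, elastic fibres and latent TGF-beta binding, 5 were higher and 2 lower at that unadjusted level, with a median of 0.34. EFEMP2, also called fibulin 4, which is needed for elastic fibre assembly, had 86.2 and 93.0 CPM in the invasive libraries against 53.8 and 51.0 in the controls. Its log2 fold change was 0.75 ± 0.10 (adjusted p = 0.0626). LTBP1, which anchors latent TGF-beta to fibrillin and fibronectin, was lower, with 252 and 174 CPM in the invasive libraries against 363 and 250 in the controls (−0.54 ± 0.10, adjusted p = 0.0937). Elastin itself, ELN, had 34 and 18 counts in the invasive libraries against 2 and 4 in the controls (fitted on these few counts, 3.19 ± 0.59, adjusted p = 0.096). EFEMP2 and ELN, like FBN1, were higher in both invasive libraries, and LTBP1 was lower in both. Of the 13 genes, 9 were higher in both pairs (against 33.4% of all tested genes) and 3 were lower in both (against 31.9%). FBN3 was at 0 in all 4 libraries.

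Of 14 tested receptors, 3 were higher and 0 lower at an unadjusted p under 0.05, with a median of 0.10. SDC1, a syndecan, had a log2 fold change of 0.37 ± 0.10, the integrin subunit ITGAV 0.42 ± 0.13 and ITGA4 0.61 ± 0.20 (adjusted p = 0.149, 0.183 and 0.203). Of 15 genes of fibronectin fibril assembly and cross-linking, 1 was higher and 2 lower, with a median of 0.05. TGM2, a transglutaminase that cross-links fibronectin, was lower, with 117 and 208 CPM in the invasive libraries against 152 and 351 in the controls (−0.58 ± 0.12, adjusted p = 0.107). PARVA and PTK2, which act at focal adhesions, had 0.32 ± 0.11 and −0.31 ± 0.11 (adjusted p = 0.221 and 0.229).

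Of 11 tested proteases, 2 were higher and 0 lower at that level, with a median of 0.26. HTRA1, a secreted serine protease, had 573 and 389 CPM in the invasive libraries against 396 and 225 in the controls (0.64 ± 0.11, adjusted p = 0.0934). The gelatinase MMP2 had 0.51 ± 0.11 and the membrane protease MMP14 0.26 ± 0.12 (adjusted p = 0.107 and 0.307). Of 21 regulators of TGF-beta, SRF and YAP signalling, 3 were higher and 3 lower, with a median of −0.06. SMAD3, a transcription factor downstream of TGF-beta, was lower, with 100.2 and 85.8 CPM in the invasive libraries against 142 and 177 in the controls (−0.79 ± 0.14, adjusted p = 0.0937). TEAD4, a DNA-binding partner of YAP, had −0.58 ± 0.14 (adjusted p = 0.135).

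**Figure D5:**
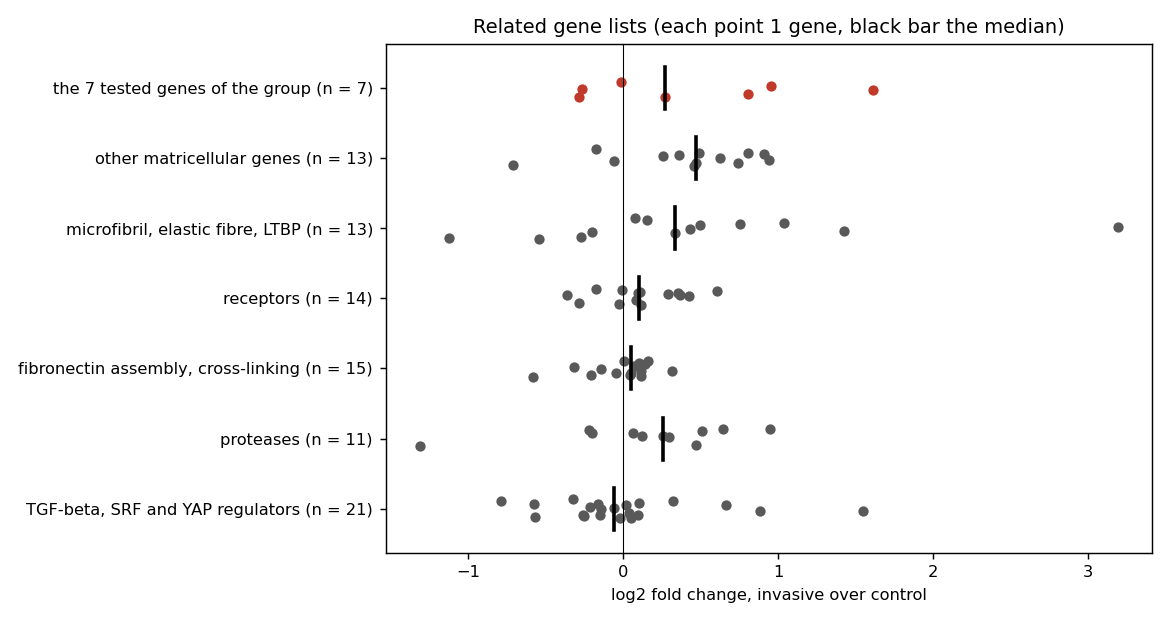
Log2 fold change of invasive over control (x axis) for each tested gene of the group (red) and of the 6 related lists (grey), with black bars at the medians. The medians lie between −0.06 for the regulators and 0.47 for the other matricellular genes, and the group's own median is 0.27.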

How the data were processed

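Polyadenylated RNA of 4 U87MG libraries was examined, 2 invasive and 2 control. The deposited raw counts are whole numbers per Ensembl gene, per the file headers. The submitters' processing notes name TopHat2 2.0.12, Bowtie, HTSeq, DESeq2, bcl2fastq 1.8.4 and the GRCh38 build, without saying what each was used for. The strand setting of the counting is not stated. The authors' normalized values, a rounded score per gene of unstated method, served 1 alternative: within a pair their sorted values were identical at 85.3% and 73.5% of ranks.

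Genes in all 4 files were filtered (filterByExpr, minimum count 10, total 15) and fitted with edgeR 4.0.16 (quasi-likelihood F test, two-sided, TMM, robust, R 4.3.3), with the pair as a block, as the series' design text pairs the populations. This leaves 1 residual degree of freedom, so p-values lean on the spread shared over genes. SE is the fold change over the root of F. Pair differences correlated between groups (r 0.283), and libraries of a group were not duplicates (chi-square per degree of freedom 19.6 and 31.5). Within-pair values used a prior count of 2 and have no test. Intervals at 95% on CPM are exact Poisson and cover counting error only. Gene bounds matched GENCODE 29 for all 8 members, and lengths came from it. Alternatives were no block, other size factors, library totals, no filter, DESeq2 1.42.0 and leaving out each library. Members and lists were chosen with earlier results of these data known. Related genes were named by an adjusted p under 0.05 or the 3 smallest p of a list; a gene that this rule names in 1 list is not reported here.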

Additional observations from a re-analysis of the deposited data

How the results depend on the processing

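In fits over 14231 genes, or 25577 with no filter, calls depended strongly on the settings: 34 higher and 5 lower genes in the main test became 80 and 9 with RLE size factors, 368 and 91 with library totals only, 760 and 693 with no filter and 142 and 29 with DESeq2. With no replicate block, dropping the pairing, there were 2 and 0. Leaving out 1 library, which also drops the block, gave 3 to 55 higher and 0 to 61 lower. The members called higher numbered 0 in the main test, 2 with RLE, totals, no filter and DESeq2, and 0 with no replicate block or with any library left out; none was called lower under these settings. SPARC and FBN1, the 2 genes concerned, had log2 fold changes of 0.95 and 0.80 with RLE, 0.97 and 0.82 with totals, 0.93 and 0.78 with no filter and 0.95 and 0.80 with DESeq2. Without the block, that is without pairing, SPARC had 0.95 (adjusted p = 0.202) and FBN1 0.79 (adjusted p = 0.236). Leaving out a library together with the block gave FN1 −0.15 to 0.63, FBN2 −0.068 to 0.04 and THBS2 −0.79 to 0.22. FBN2 was 0.008 with library totals. In the related lists, calls numbered 0 higher and 0 lower in the main test. They were 1 and 0 with RLE, 6 and 4 with totals and 6 and 2 with DESeq2. Over all 14231 genes, 0.562%, 2.59% and 0.998% passed upward in these fits, and 9, 91 and 29 genes downward. With no filter, calls in the lists were 17 and 10, beside 2.97% of all 25577 genes upward and 693 genes downward. That fit also took in list genes with too few counts for the main test, so its calls are not out of 87. With the authors' normalized values, which were set within each pair, FN1 in pair 2 had a log2 difference of 0.00 in place of 0.18, since its value was 44688 in both libraries, and TNC in pair 2 turned from −0.05 to 0.05; the within-pair alternatives other than that of FN1 moved by less than the spread between pairs. Motif counts were the same with only the bases before the start. Apart from the construction of each alternative, the causes were not tested. With 2 libraries a group, precision is set by their number, except for POSTN, where depth is the limit.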
